A study of Mus musculus with 17 samples.

Results

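The 10 genes described here are NRF2 (Nfe2l2), its inhibitor KEAP1 (Keap1) and 8 antioxidant genes under NRF2 control, Nqo1, Gclc, Gclm, Gsr, Txnrd1, Srxn1, Prdx1 and G6pdx. They were taken by gene symbol from 3 tables of mouse lung cell populations, and all 10 were listed among the 16410 genes of the tumor cell table, the 13545 of the TRM table and the 13407 of the MDM table, out of 17555 gene names in all. Each table held RNA sequencing of 2 KL and 2 KLG4 libraries as RPKM, that is, read numbers divided by gene length and by library depth. TRMs and MDMs are the names used in the labels, which do not spell them out.

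KL mice carried Lkb1fl/fl, a floxed Lkb1 (Stk11) gene that responds to Cre recombinase and that KLG4 mice shared. KLG4 mice carried in addition Gpx4m/m, in which exons of Gpx4 lie between rox sites and a DreERT2 recombinase, driven by a CAG promoter behind a floxed STOP cassette, sits in the same locus. Adult mice of both genotypes were given an adenovirus with Cre (Ad-Cre) through the nose and later tamoxifen, and cells were sorted from tumor-bearing lungs 10 weeks after the virus. Ad-Cre was not restricted to a cell type by its promoter as far as the sources used here say, and the gates for TRMs and MDMs were not given in the sources used here. By the legends of the study, the tumor cell groups stood for separate mice; for TRMs and MDMs this was not given in the sources used here, so their spread may be technical. All 4 tumor cell libraries held both Xist, the RNA of the inactive X (4.17 to 6.18 RPKM), and the Y-linked Ddx3y (8.61 to 17.1 RPKM). Whether each held cells of a single mouse was not tested. In read numbers, the KLG4 tumor pair differed by a mean chi-square of 3.28 per gene, against 28.9 to 132 for the other pairs of libraries. The spread of the tumor cell libraries may be technical as well, which was not tested.

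NRF2 is a transcription factor that KEAP1 marks for degradation in resting cells. Oxidants and electrophiles modify KEAP1, NRF2 then accumulates without any need for more of its mRNA, and it binds antioxidant response elements beside genes that make glutathione, regenerate thioredoxin and supply NADPH. GPX4 uses glutathione to reduce lipid peroxides, so GPX4 and several of the genes below draw on the same supply of glutathione and NADPH.

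Promoter sequence is shown as background to the choice of these genes, most of which are known targets of NRF2 through the element searched for. RefSeq windows on GRCm38.p6, from 250 bases before to 50 bases after each annotated start, were at hand for 8 of the 10 genes. The 9-base core of the antioxidant response element, TGACNNNGC on either strand (GCNNNGTCA when read on the gene's strand from the opposite strand), was found in the windows of 6 of these 8, namely Nfe2l2, Gclm, Txnrd1, Srxn1, Prdx1 and G6pdx. The same letters were present for 14.0% of the 27025 genes with such windows and in 12.4% of all 32851 windows. The matches are shown on the gene's strand, 5′ to 3′, with 10 bases on each side and the core in capitals. NRF2 is known to act through the antioxidant response element, but whether it acts through these matches was not tested.
Nfe2l2, chr2:75704885-75704913, minus strand: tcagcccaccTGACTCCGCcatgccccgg
Gclm, chr3:122245413-122245441, plus strand: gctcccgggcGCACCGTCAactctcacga
Txnrd1, chr10:82859104-82859132, plus strand: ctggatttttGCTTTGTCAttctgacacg
Srxn1, chr2:152105542-152105570, plus strand: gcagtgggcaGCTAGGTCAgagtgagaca
Prdx1, chr4:116685456-116685484, plus strand: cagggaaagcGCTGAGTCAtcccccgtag
G6pdx, chrX:74428919-74428947, minus strand: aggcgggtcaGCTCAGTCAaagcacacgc

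Relative to the annotated start, the core began 240 bases upstream in Nfe2l2, 134 in Gclm, 92 in Txnrd1, 133 in Prdx1 and 57 in G6pdx, and 28 bases downstream in Srxn1. Of these matches only the Nfe2l2 core lay on the gene's own strand. Txnrd1 had 3 annotated starts, and 1 of its 3 windows held the core. The windows of Nqo1 and Keap1 did not hold these letters, and those of Gclc and Gsr were not among the windows used. A match is a description of the sequence; binding was not measured here.

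Library depth ranged from about 9141000 to 36617000 reads, as recovered from the RPKM values and gene lengths. The 10 genes rested on 10 recovered reads at the least (Nqo1) and 26107 at the most (Gclc). In tumor cells, the gene targeted in the model, Gpx4, was 56.4 and 61.9 RPKM with KLG4 and 94.95 and 76.8 RPKM with KL, a log2 fold change of -0.53 ± 0.15 (SE; limma, adjusted p = 0.0360), and Stk11 was at 61.6 in both KLG4 libraries against 25.9 and 25.8 in KL (1.25 ± 0.11, adjusted p = 0.00090). Gpx4 did not pass the adjusted test in TRMs (-0.68 ± 0.15, adjusted p = 0.0697) or in MDMs (0.76 ± 0.28, adjusted p = 0.679), where its KLG4 libraries were the higher ones, nor did Stk11, with differences of 0.88 in TRMs and 1.49 in MDMs. The tumor cell libraries carried their epithelial markers, with Epcam, the antigen of the sort, at 211 RPKM or more in all 4. The TRM libraries carried alveolar macrophage markers, with 7 markers summing to 3743 to 8674 RPKM. The MDM libraries held 10624 to 23271 RPKM of 5 neutrophil markers but 52.7 to 288 RPKM of the 7 markers listed for monocyte-derived macrophages, so the label was not matched by its markers and the population is named below by its label alone. For the 3 populations together, the level of a gene in a bulk sample cannot tell fewer cells of a type from less RNA per cell.

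The members differed widely in level, and their order across populations was not the same for all. The tables were made separately, so these levels are set side by side without a test. By the ratio of the highest to the lowest of the 12 libraries, Gclc had the widest range, 5.37 to 229 RPKM (ratio 42.6). Nfe2l2 (48.0 to 99.6 RPKM, ratio 2.08) and Gclm (2.31 to 5.05 RPKM, ratio 2.19) had the narrowest by that ratio. In KL mice the mean Gclc level of tumor cells was 36.0 times that of TRMs and 27.3 times that of MDMs, whereas Gsr was 3.83 times and Txnrd1 2.74 times as high in MDMs as in tumor cells. The sum of the 10 genes was 493 to 626 RPKM in tumor cells, 356 to 401 RPKM in TRMs and 541 to 653 RPKM in MDMs. The plot of levels shows the libraries side by side.

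**Figure D1:**
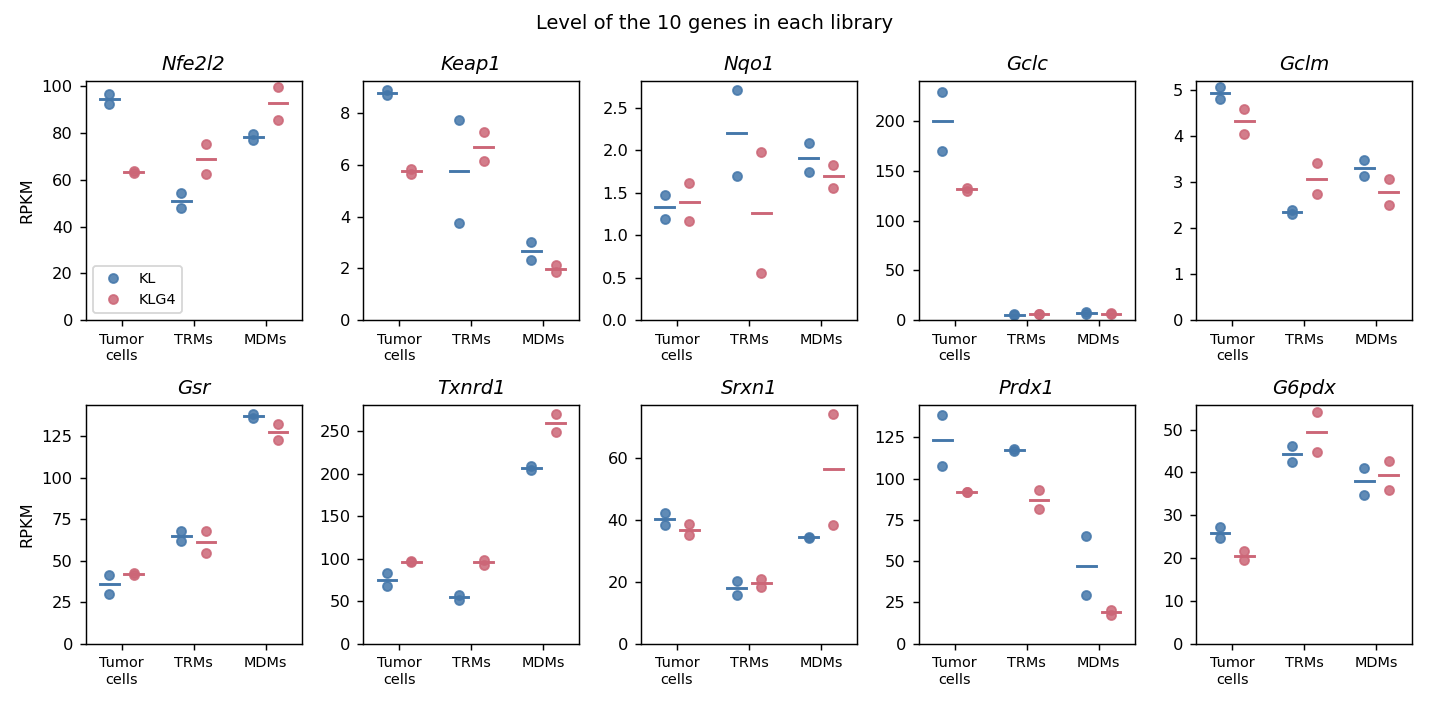
RPKM of each of the 10 genes (y axes, linear, from 0) in KL (blue) and KLG4 (red) libraries of tumor cells, TRMs and MDMs; points are single libraries and bars the mean of 2. Gclc stands at 129.9 to 229 RPKM in tumor cells against 5.37 to 8.19 RPKM elsewhere, and Txnrd1 is higher and Prdx1 lower in both KLG4 libraries of every population.

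In tumor cells, 3 of the 10 genes differed between genotypes at an adjusted p under 0.05 (limma on log2(RPKM + 0.1), Benjamini-Hochberg over 13770 genes), and all 3, Nfe2l2, Keap1 and Gclc, were lower in KLG4. Over all genes tested, 19.6% were called lower and 20.6% higher, so 3 of 10 lower and 0 of 10 higher stand beside a background in which such calls were common. The KLG4 pair lay wholly below the KL pair for 6 of the 10 genes and above them for 1 (Txnrd1), against 42.2% and 32.5% of all genes. The median log2 fold change of the 10 genes was -0.26, beside -0.09 for all genes tested.

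The KLG4 tumor libraries were closer to each other than any other pair of the same group. Their reads differed by a mean chi-square of 3.28 per gene, against 28.9 to 132 for the other 5 pairs of libraries. With either KLG4 library left out, the count of members called was 0, beside 14% to 14.5% of all genes. Leaving out KL replicate 1 gave 7, beside 48.6% of all genes, and leaving out KL replicate 2 gave 5, beside 53.5%.

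**Figure D2:**
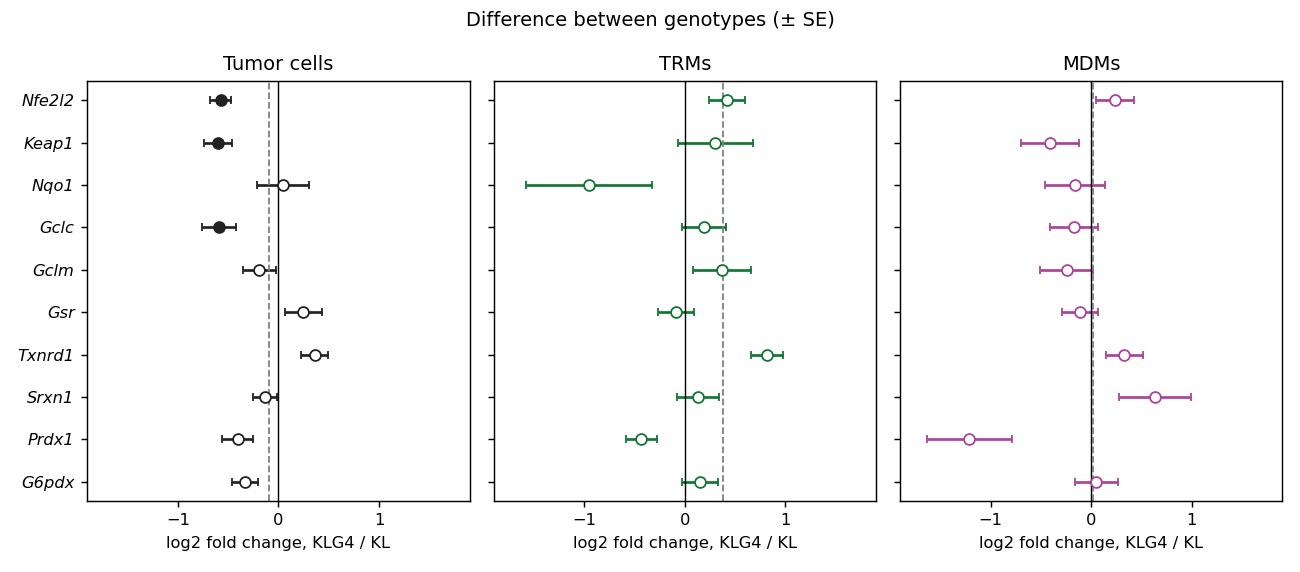
Log2 fold change of KLG4 over KL (x axes, with SE bars, n = 2 libraries per genotype) for the 10 genes in each population. Filled points have an adjusted p under 0.05 (Nfe2l2, Keap1 and Gclc in tumor cells only), the solid line is at 0, and the dashed line is the median of all genes tested, -0.09 in tumor cells, 0.38 in TRMs and 0.02 in MDMs.

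In TRMs, none of the 10 genes passed the adjusted threshold (limma, 10990 genes tested, 1.8% called in either direction); at an unadjusted p under 0.05, Txnrd1 was higher, as were 25.5% of all genes, and Prdx1 lower, as were 2.78%. The deposited values placed the median of all genes at 0.38 on the log2 scale in favour of KLG4. Reads of mitochondrial genes and their nuclear copies took 22.3% to 31.5% of the reads in the KL TRM libraries and 2.95% to 5.78% in KLG4. Scaled to the reads outside mitochondrial genes, the all-gene median was 0.00, so TRM differences are also given relative to 0.38. The members lay at -1.33 (Nqo1), -0.81 (Prdx1), -0.47 (Gsr), -0.25 (Srxn1), -0.23 (G6pdx), -0.19 (Gclc), -0.08 (Keap1), -0.01 (Gclm), 0.04 (Nfe2l2) and 0.43 (Txnrd1) from it. The members' median was 0.17 before and -0.22 after that scaling. The KLG4 pair lay wholly above the KL pair for 4 of the 10 genes, where 53.7% of all genes did so, and below them for 1, where 8.95% did so. In TRMs Xist was 18.3 and 20.2 RPKM with KLG4 and 0.257 and 0.501 RPKM with KL, and Ddx3y was 0.0144 RPKM and listed at 0 with KLG4 and 10.3 and 11.8 RPKM with KL. For every TRM difference given here, genotype and sex cannot be told apart.

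In MDMs, none of the 10 genes passed the adjusted threshold, nor did any of the 10475 genes tested (limma, smallest adjusted p = 0.679); at an unadjusted p under 0.05, 706 genes were called, Prdx1 among them as the sole member, and it was lower, as were 3.92% of all genes. With limma-voom on the recovered reads no MDM gene passed either. The KLG4 pair lay wholly above the KL pair for 3 members (25.4% of all genes) and below for 4 (19.1% of all genes). The median log2 fold change of the members was -0.14, beside 0.02 for all genes. KL replicate 2 stood apart in this population, with 254 RPKM of 5 epithelial markers against 18.3 to 71.3 in the other 3 libraries, 288 RPKM of the monocyte-derived macrophage list against 52.7 to 72.8, and Xist at 0.839 RPKM against 19.4 to 21.8.

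Nfe2l2 encodes NRF2 itself (chr2:75675513-75704641, minus strand, GRCm38, 3796 exonic bases). Tumor cell libraries held 63.7 and 63.1 RPKM with KLG4 and 92.3 and 96.5 RPKM with KL. The groups did not overlap, and the log2 fold change was -0.57 ± 0.11 (limma, adjusted p = 0.0105). Its adjusted p stayed under 0.05 in 12 of 14 alternative settings, and in the others, each without a KLG4 library, it was at most 0.165.

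The direction was the opposite in the other populations. The TRM libraries held 75.1 and 62.3 RPKM with KLG4 and 48.0 and 54.3 RPKM with KL, a fold change of 0.42 ± 0.18 on the log2 scale (adjusted p = 0.187), which is 0.04 above the median of all genes. The MDM libraries held 99.6 and 85.6 RPKM with KLG4 and 77.1 and 79.4 RPKM with KL (0.24 ± 0.19, adjusted p = 0.703). In both populations KLG4 was higher with no overlap, but the test was not passed. In KL mice the level was highest in tumor cells, and in KLG4 mice it was highest in MDMs.

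Keap1 encodes the adaptor that holds NRF2 for ubiquitination by the CUL3 ligase (chr9:21229730-21239361, minus strand). Tumor cell values were 5.66 and 5.86 RPKM with KLG4 and 8.90 and 8.72 RPKM with KL, and the log2 fold change was -0.60 ± 0.14 (limma, adjusted p = 0.0211). The groups were well apart, as for Nfe2l2. Both fell, and the ratio of Nfe2l2 to Keap1 within a library was 10.4 to 11.2 in the 4 tumor cell libraries.

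TRM values were 7.27 and 6.16 RPKM with KLG4 and 3.75 and 7.76 RPKM with KL, where the KL libraries spanned the KLG4 values. Among MDMs the values were 1.86 and 2.11 RPKM with KLG4 and 2.34 and 3.04 RPKM with KL (-0.41 ± 0.29 on the log2 scale, adjusted p = 0.691), the lowest levels of the gene. The ratio of Nfe2l2 to Keap1 was accordingly 26.1 to 53.7 in MDMs, with both KLG4 libraries (53.7 and 40.5) above both KL libraries (32.9 and 26.1), and 6.99 to 12.8 in TRMs, where the genotypes overlapped. The antisense gene Gm16754 overlaps Keap1, and the library kit did not mark strand, so reads of the pair cannot be told apart where they overlap.

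Nqo1, the quinone reductase that is widely used as a readout of NRF2 activity (chr8:107388225-107403206, minus strand), was barely expressed in these cells. Its level ran from 0.548 to 2.70 RPKM over the 12 libraries, or 10 to 84 recovered reads. Of recovered counts under 30 in a library, 17.4% to 32.5% were odd numbers, so the number of independent fragments may be below that of the reads. Among tumor cells the levels were 1.17 and 1.62 RPKM with KLG4 and 1.48 and 1.19 RPKM with KL, and the groups overlapped (0.05 ± 0.26 on the log2 scale, limma, adjusted p = 0.897).

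The widest spread was in TRMs, with 1.97 and 0.548 RPKM for KLG4 libraries and 2.70 and 1.69 RPKM for KL libraries (-0.95 ± 0.63, adjusted p = 0.354). That value rested on KLG4 replicate 2, as it was -0.11 without that library and -1.79 without KLG4 replicate 1. MDM libraries read 1.83 and 1.56 RPKM with KLG4 and 2.08 and 1.74 RPKM with KL. At this depth no difference between genotypes was detectable in any population. Among 6241 genes in all 3 tables with a mean of at least 5 RPKM, Cript (Pearson r = 0.80), mt-Tv (0.75), Gm16181 (0.73), Tgtp2 (0.69) and Gm24950 (0.69) followed Nqo1 most closely over the 12 libraries; these coefficients describe libraries that share tables and depths and rest on few Nqo1 reads.

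Gclc encodes the catalytic subunit of glutamate-cysteine ligase, the rate-limiting enzyme of glutathione synthesis (chr9:77754535-77794485, plus strand). In tumor cells it measured 129.9 and 133 RPKM with KLG4 and 170.5 and 229 RPKM with KL. The groups did not overlap, and the log2 fold change was -0.59 ± 0.17 (limma, adjusted p = 0.0394), a fold of 0.66. The adjusted p stayed under 0.05 in 8 of 14 alternatives and ranged from 0.00039 to 0.263; it was 0.0529 with TMM scaling, 0.0798 when scaled to the reads outside mitochondrial genes and 0.136 with quantile scaling.

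Gclc was low in the other populations. Among TRMs the values were 6.53 and 6.17 RPKM with KLG4 and 5.74 and 5.37 RPKM with KL (0.19 ± 0.22 on the log2 scale, adjusted p = 0.589), and under the 4 settings that rescale or renormalize the TRM libraries this difference turned negative, to between -0.22 and -0.19. For MDMs the gene was at 6.66 and 6.22 RPKM with KLG4 and 6.45 and 8.19 RPKM with KL, and the groups overlapped.

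Gclm encodes the modifier subunit of the same ligase (chr3:122245557-122270732, plus strand, 6291 exonic bases). Tumor cell libraries held 4.59 and 4.04 RPKM with KLG4 and 5.05 and 4.804 RPKM with KL, a difference of -0.19 ± 0.16 on the log2 scale that did not pass the test (limma, adjusted p = 0.391). For TRMs the gene was at 2.74 and 3.41 RPKM with KLG4 and 2.31 and 2.38 RPKM with KL (0.37 ± 0.29, adjusted p = 0.425), close to the all-gene median. MDM values were 3.07 and 2.504 RPKM with KLG4 and 3.49 and 3.12 RPKM with KL (-0.24 ± 0.26, adjusted p = 0.758). The groups did not overlap in any population, yet no difference passed the test.

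The mRNAs of the subunits were far from equal in tumor cells. The ratio of Gclc to Gclm, both per length, was 28.3 and 32.8 in KLG4 tumor libraries and 33.7 and 47.7 in KL, whereas it was 1.81 to 2.49 in TRMs and 1.85 to 2.62 in MDMs. The excess of the catalytic subunit's mRNA was seen in all 4 tumor cell libraries. Gclm overlaps Gm17494 on the opposite strand and the pseudogene Gm6061 on its own, and its level is uncertain where reads could be shared.

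Gsr encodes glutathione reductase, which returns oxidized glutathione to its reduced form with NADPH (chr8:33652523-33698163, plus strand). Tumor cell values were 42.5 and 41.6 RPKM with KLG4 and 41.7 and 29.95 RPKM with KL, so the groups overlapped (0.25 ± 0.18 on the log2 scale, limma, adjusted p = 0.320). Without KL replicate 1 this became 0.49 with an adjusted p of 0.00529, and without KL replicate 2 it was 0.01 (adjusted p = 0.913), each a value that rests on a lone KL library. TRM libraries read 54.6 and 67.8 RPKM with KLG4 and 61.7 and 67.9 RPKM with KL. The MDM levels were 132 and 123 RPKM with KLG4 and 136 and 139 RPKM with KL (-0.11 ± 0.18, adjusted p = 0.830). The order MDMs, TRMs, tumor cells held in both genotypes with no overlap between populations.

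Txnrd1 encodes cytosolic thioredoxin reductase, a selenoprotein that reduces thioredoxin with NADPH (chr10:82859206-82897724, plus strand). It was the sole member with higher values for KLG4, free of overlap, in every population. This held for 7.63% of the 8976 genes tested in all 3 tables.

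Among tumor cells the levels were 96.7 and 95.5 RPKM with KLG4 and 67.7 and 82.8 RPKM with KL, a log2 fold change of 0.36 ± 0.14 (limma, adjusted p = 0.0881). The TRM levels were 98.8 and 92.9 RPKM with KLG4 and 51.7 and 57.3 RPKM with KL (0.82 ± 0.16, adjusted p = 0.0592), which is 0.43 above the all-gene median. MDMs had 270 and 248 RPKM with KLG4 and 208 and 204 RPKM with KL (0.33 ± 0.18, adjusted p = 0.679). All 3 differences missed the threshold. The sign was positive in all 14 alternatives of each population, and the adjusted p fell under 0.05 in 5 of them in tumor cells, in 3 in TRMs and in 0 in MDMs; in TRMs these were a pseudocount of 1 (0.0477), a filter at a mean of 5 RPKM (0.0372) and leaving out KL replicate 2 (0.0330), fits that called 4.46%, 9.61% and 21.7% of all genes. In tumor cells, the alternatives that kept all libraries called 36.4% to 48.8% of all genes. Eid3 lies within the Txnrd1 gene on the same strand.

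Srxn1 encodes sulfiredoxin, which repairs overoxidized peroxiredoxins (chr2:152105516-152111376, plus strand). In tumor cells it measured 35.0 and 38.5 RPKM with KLG4 and 42.2 and 38.4 RPKM with KL, with overlap (-0.13 ± 0.12 on the log2 scale, limma, adjusted p = 0.426). TRMs had 18.3 and 20.9 RPKM with KLG4 and 15.7 and 20.3 RPKM with KL, also with overlap. In the MDM table the values were 74.1 and 38.2 RPKM with KLG4 and 34.4 and 34.1 RPKM with KL (0.63 ± 0.36, adjusted p = 0.679). The MDM difference came mostly from KLG4 replicate 1, and without that library it was 0.16 on the log2 scale.

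Prdx1 encodes a cytosolic peroxiredoxin that reduces hydrogen peroxide and is recycled by thioredoxin (chr4:116685544-116700822, plus strand). It was the sole member with lower values for KLG4, free of overlap, in every population, as 2.3% of the 8976 genes did.

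Tumor cell libraries held 92.0 and 92.2 RPKM with KLG4 and 139 and 108 RPKM with KL (-0.41 ± 0.15 on the log2 scale, limma, adjusted p = 0.0855). The TRM libraries held 81.4 and 92.9 RPKM with KLG4 and 118 and 117 RPKM with KL (-0.43 ± 0.16, adjusted p = 0.147), which is 0.81 below the all-gene median. The MDM libraries held 20.3 and 17.5 RPKM with KLG4 and 29.4 and 65.4 RPKM with KL (-1.21 ± 0.42, adjusted p = 0.679). None passed the adjusted threshold, and the sign was negative in all 14 alternatives of each population. In tumor cells 2 of the 14 passed, with -0.22 without KL replicate 1 (adjusted p = 0.0252) and -0.59 without KL replicate 2 (adjusted p = 0.00112). With limma-voom on the recovered reads the TRM difference was -0.83 (adjusted p = 0.00959).

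The high Prdx1 value in MDMs belonged to KL replicate 2, the library with the highest epithelial markers (Krt18 at 104 RPKM against 2.55 to 30.3 in the other 3). Without that library the MDM difference was -0.64. Without KL replicate 1 it was -1.79, in a fit in which KL replicate 2 was the lone KL library. The part of the epithelial RNA in the Prdx1 difference was not tested.

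The ratio of Txnrd1 to Prdx1 within a library is given for its size alone, since a gene wholly higher over one wholly lower must separate the genotypes. For tumor cells the KLG4 ratios were 1.05 and 1.04 and the KL ratios 0.488 and 0.769, for TRMs 1.21 and 1.00 beside 0.437 and 0.491, and for MDMs 13.3 and 14.2 beside 7.09 and 3.12. A ratio within a library does not change when a library is scaled by 1 factor. It shows unequal change of the pair, and it was formed after the values of both genes had been seen, so no test is attached to it.

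G6pdx encodes the X-linked glucose-6-phosphate dehydrogenase, the entry enzyme of the pentose phosphate pathway and a main source of NADPH (chrX:74409483-74429194, minus strand). Tumor cell values were 21.7 and 19.5 RPKM with KLG4 and 24.6 and 27.2 RPKM with KL, without overlap (-0.33 ± 0.13 on the log2 scale, limma, adjusted p = 0.0958). TRM values were 54.1 and 44.7 RPKM with KLG4 and 46.1 and 42.4 RPKM with KL. Among MDMs the values were 42.8 and 36.0 RPKM with KLG4 and 41.1 and 34.8 RPKM with KL. The groups overlapped in the latter populations. Ikbkg overlaps G6pdx on the opposite strand.

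**Figure D3:**
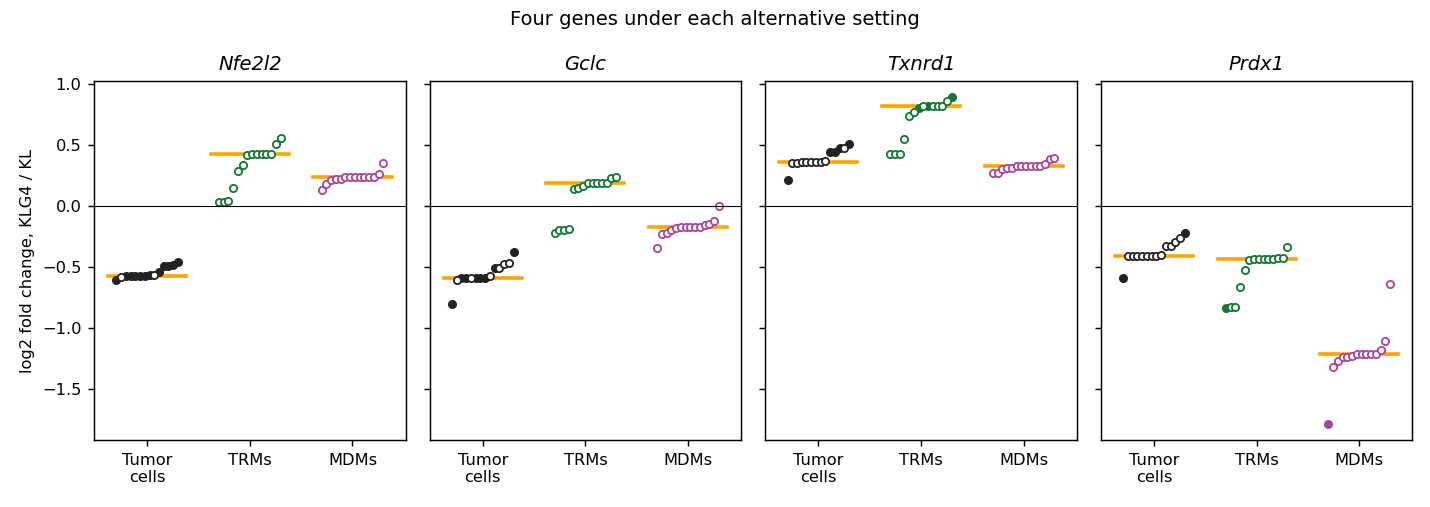
Log2 fold change of KLG4 over KL (y axis) for Nfe2l2, Gclc, Txnrd1 and Prdx1 in each population; the orange line is the reported value, each point is 1 of 14 alternative settings, and filled points have an adjusted p under 0.05. Txnrd1 stays above 0 and Prdx1 below 0 throughout, while Gclc in TRMs lies on both sides of 0, from -0.22 to 0.24.

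Of 49 other genes of the pathway, in lists of 10 that control KEAP1 and NRF2, 24 further NRF2 targets and 15 further glutathione, thioredoxin and superoxide enzymes, 48 were tested in tumor cells, and 12 rose and 6 fell in KLG4 (limma, adjusted p under 0.05), beside 20.6% and 19.6% of all genes. By list, 2 rose and 1 fell among the control genes, 6 rose and 3 fell among the targets, and 4 rose and 2 fell among the enzymes. The list medians were 0.09, 0.10 and 0.03 on the log2 scale, against -0.09 for all genes. The count of 18 fell without a KLG4 library and rose without a KL library, and the share of all genes called moved the same way.

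The largest increases in tumor cells were in a cystine importer, superoxide dismutases and a peroxidase. Slc7a11, the cystine importer that feeds glutathione synthesis, was 24.6 and 25.8 RPKM with KLG4 and 1.12 and 2.38 RPKM with KL (3.87 ± 0.34 on the log2 scale, adjusted p = 0.000955). Sod3, the extracellular superoxide dismutase, was 35.6 and 34.4 RPKM against 1.69 and 1.86 RPKM (4.23 ± 0.14, adjusted p = 9.74e-05), and Gpx3, a secreted glutathione peroxidase, was 45.2 and 46.1 RPKM against 4.47 and 3.96 RPKM (3.41 ± 0.13, adjusted p = 0.000134). Sod2, the mitochondrial superoxide dismutase, was 42.3 and 44.2 RPKM against 17.6 and 16.1 RPKM (1.36 ± 0.12, adjusted p = 0.000939). For each of these the KLG4 pair lay above the KL pair.

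These rises were in the libraries whose markers of other cells also rose, and in which all 5 epithelial and all 7 AT2 cell markers fell, the 3 club cell markers rose, and mitochondrial reads took 14.7% to 14.8% against 7.38% to 8.26% in KL. From KL to KLG4 tumor libraries, the summed level of 5 leukocyte markers went from 11.9 to 13.3 RPKM up to 113 to 116, of 5 neutrophil markers from 179 to 271 up to 2150 to 2248, of 4 plasma cell markers from 7.73 to 30.4 up to 1902 to 1935, and of 5 fibroblast markers from 10.3 to 15.6 up to 353 to 355, with all members of these lists higher and none at 0. The sums also went from 5.09 to 6.71 RPKM up to 71.8 to 75.9 for 7 monocyte-derived macrophage markers, from 0.154 to 0.165 up to 9.62 to 9.70 for 4 T cell markers, and from 32.0 to 39.6 up to 249.9 to 259 for 6 alveolar macrophage markers (4 higher, with Fabp4 and Pparg at lower values that did not pass the test). The sort kept EpCAM+ CD31- cells. The study's legend for the tumor cell RNA sequencing gives them as CD45-negative, whereas the sorting methods print CD45 as positive for tumor cells. The epithelial sum went from 6139 to 8269 RPKM down to 3550 to 3560, and Epcam from 638 and 420 RPKM to 215 and 211 (-1.28 ± 0.21, adjusted p = 0.00727). Of the genes that rose most, Slc7a11 stood at 53.1 to 61.1 RPKM in MDMs and 5.26 to 9.48 in TRMs, and Sod2 at 42.6 to 141 and 27.1 to 43.7. Gpx3 stood at 2.01 to 10.7 RPKM in MDMs and 6.05 to 8.81 in TRMs, and Sod3 at 0.205 to 0.567 and 0.137 to 0.702, all under their level in KLG4 tumor cells. The part of these cells in the differences of the members and of the other pathway genes was not tested.

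The largest decreases in tumor cells were smaller. Ptgr1, a prostaglandin and leukotriene reductase, was 20.8 and 21.5 RPKM with KLG4 and 49.8 and 40.2 RPKM with KL (-1.08 ± 0.15 on the log2 scale, limma, adjusted p = 0.00363), and Prdx3, the mitochondrial peroxiredoxin, was 5.94 and 7.01 RPKM against 12.6 and 10.3 RPKM (-0.81 ± 0.17, adjusted p = 0.0166). Gstp1, a glutathione transferase, was 39.8 and 38.2 RPKM against 76.05 and 58.3 RPKM (-0.77 ± 0.16, adjusted p = 0.0147), and Prdx2 was 6.58 and 6.80 RPKM against 12.9 and 9.93 RPKM (-0.75 ± 0.18, adjusted p = 0.0221). The peroxiredoxins did not move together: Prdx2 and Prdx3 fell by the test, Prdx6 rose by it (0.74 on the log2 scale, adjusted p = 0.00578; named after its values were seen), and Prdx1, at lower values, Prdx4 (-0.05) and Prdx5 (0.02) did not pass it.

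**Figure D4:**
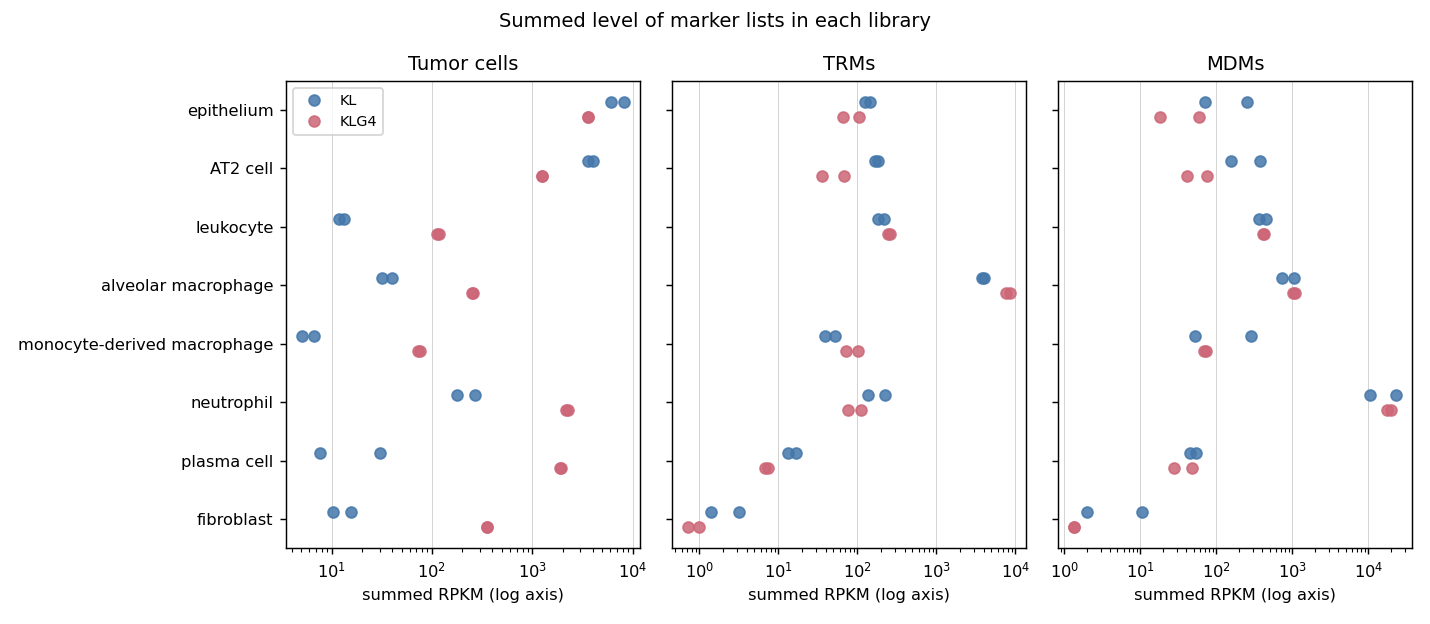
Summed RPKM of marker lists (x axes, logarithmic) in each KL (blue) and KLG4 (red) library of the 3 populations. In tumor cells the leukocyte, neutrophil, plasma cell and fibroblast sums are higher and the epithelial sum lower in both KLG4 libraries; in MDMs KL replicate 2 has the highest epithelial sum, 254 RPKM.

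In TRMs, 1 of 45 other pathway genes tested passed the threshold, beside 1.8% of all genes. This was Nfe2l1, a relative of NRF2 that binds the same elements. It was at 60.6 and 47.5 RPKM with KLG4 and 19.1 and 23.7 RPKM with KL (1.33 ± 0.21 on the log2 scale, limma, adjusted p = 0.0475). Its difference lay 0.95 above the all-gene median. The count was 0 under 8 of 14 alternatives, including each rescaling except limma-voom on recovered reads. There it was 4, in a fit that called 7.15% of all genes. All 10 control genes had a positive difference, with a median of 0.54 against 0.38 for all genes, and 9 of them had the KLG4 pair above the KL pair, as did 53.7% of all genes; relative to the all-gene median, 6 of the 10 were positive and 4 negative. The target and enzyme lists lay below the all-gene median, at 0.08 and 0.07. The KL TRM libraries also held more AT2 cell RNA, with 7 markers summing to 169 to 181 RPKM against 35.5 to 68.3 in KLG4 (5 of 7 lower in KLG4, 2 higher, none at 0). Sums of 7 markers each went the other way for alveolar macrophages (3743 to 3970 RPKM in KL, 7626 to 8674 in KLG4; 4 of 7 higher, 1 lower) and monocyte-derived macrophages (39.1 to 53.1 RPKM in KL, 72.4 to 104 in KLG4; 5 of 7 higher). The part of these cells in the TRM differences was not tested.

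In MDMs, 0 of 44 other pathway genes passed the adjusted threshold with limma or limma-voom. At an unadjusted p under 0.05, 2 of the 44 were lower in KLG4, beside 3.92% of all genes. Gstp1 was 3.04 and 2.13 RPKM with KLG4 and 5.34 and 11.7 RPKM with KL (-1.60 ± 0.46 on the log2 scale, limma, adjusted p = 0.679), and Cbr1, a carbonyl reductase, was 2.61 and 2.70 RPKM against 4.53 and 7.63 RPKM (-1.12 ± 0.33, adjusted p = 0.679). In both genes KL replicate 2 was the highest library, as for Prdx1 and for 4 of the 5 epithelial markers (not Cdh1). Without KL replicate 1, 17 of the other pathway genes were called, as were 25.6% of all genes in that fit.

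**Figure D5:**
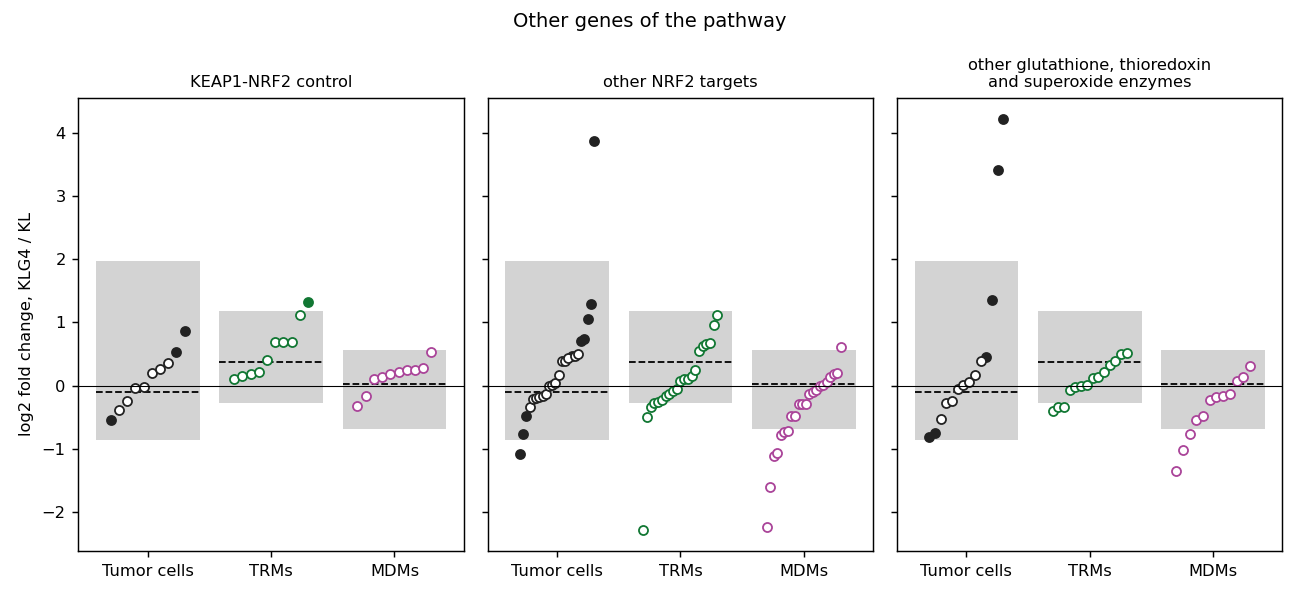
Log2 fold change of KLG4 over KL (y axis) for the other genes of the pathway in 3 lists and 3 populations, in rising order within each list. Filled points have an adjusted p under 0.05, grey boxes span the 10th to 90th percentile of all genes tested and dashed lines their median; the points far above the box in tumor cells are Slc7a11 (3.87), Gpx3 (3.41) and Sod3 (4.23).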

How the data were processed

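RNA of FACS-sorted cells was sequenced with a non-directional poly(A) protocol. The submitters' processing notes name Trim Galore 0.6.4, HISAT2 2.0.5 and featureCounts 2.0.0; gene models of the tables lie on GRCm38. The authors deposited RPKM per gene and library, 1 table per population. Gene lengths stood in the tumor cell table alone and were matched by symbol, which gave 95.7% of TRM and 93.9% of MDM genes a length. Columns with the authors' own fold changes and p-values were not used, and CD8+ T cell and monocyte samples were not used here. A further allele that KL and KLG4 mice share is not reported here. The genes and gene lists were chosen with earlier results of these data known.

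Genes that reached 1 RPKM in 2 or more of the 4 libraries were tested with limma 3.58.1 (R 4.3.3), two-sided, with a mean-variance trend on log2(RPKM + 0.1), KLG4 minus KL, separately for each population, with Benjamini-Hochberg adjustment over all genes; the procedure was tested on simulated data. The study's methods name DESeq2 on counts, which was not run here because the deposited unit is RPKM. RPKM times length gave whole reads (tolerance 0.05) for at least 99.99% of values, and limma-voom on these was an alternative, over 10660 TRM and 9976 MDM genes. Fold changes of low genes are understated by the pseudocount. Named were all 10 members; of the other lists, up to 4 largest increases and decreases per population with an adjusted p under 0.05 (unadjusted in MDMs, where none passed) and groups apart; markers that moved with a result; and the 5 genes most correlated with Nqo1. Promoter windows were RefSeq's, searched for the core on both strands with Python 3.11.15. Alternatives were other pseudocounts, filters, scalings, no trend, the replicate block and leaving out each library; with an arm of 1 library, that library is assumed to vary like the others.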

Additional observations from a re-analysis of the deposited data

Results flagged for a closer look

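Groups of 2 libraries are too small for a check of single outlying libraries. For all 61 genes of the members, the other pathway lists and the design (Gpx4 and Stk11), the side of the genotype difference was compared between populations. Of 167 pairs of populations, 27 had both KLG4 libraries on the high side of KL in one population and on the low side in the other. The share of such pairs over all genes was not computed, so the 27 are only a description. Over all genes, the KLG4 pair lay wholly above the KL pair for 32.5% in tumor cells, 53.7% in TRMs and 25.4% in MDMs. It lay wholly below for 42.2%, 8.95% and 19.1%. None of the differences between populations was tested, since the tables are separate. Each value below is the log2 fold change in the first population named minus that in the second.

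Nfe2l2 was lower in KLG4 tumor cells and higher in the other populations, with a gap of -0.997 to TRMs and -0.81 to MDMs, or -0.52 and -0.70 relative to the all-gene medians. From tumor cells to TRMs the gap was -0.78 for Gclc and -0.56 for Gclm, and from TRMs to MDMs 0.61 for Gclm. The TRM sides of Gclc and Gclm change sign when libraries are rescaled, and relative to the all-gene medians both sides of these pairs were negative.

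Among the other genes, the gaps of tumor cells to TRMs and to MDMs were -0.42 and -0.38 for Cul3, -1.87 and -0.82 for Nfe2l1, 0.74 and 0.95 for Blvrb, -1.11 and -0.68 for Pgd, 0.69 and 0.94 for Taldo1, 1.20 and 1.49 for Gstm1, and 3.75 and 4.75 for Gpx3. Prdx3 had a gap of -1.32 between tumor cells and TRMs, and Ephx1 one of 1.70 between TRMs and MDMs. Ptgr1 had -1.16 between tumor cells and TRMs and 1.15 between TRMs and MDMs, and Ftl1 0.49 between tumor cells and MDMs and 0.21 between TRMs and MDMs. Gpx4 itself had -1.29 between tumor cells and MDMs and -1.44 between TRMs and MDMs. Relative to the all-gene medians both sides were also negative for Ptgr1, for Cul3 in tumor cells and TRMs, and for Ftl1 in TRMs and MDMs.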

How the results depend on the processing

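Each population was refitted under 14 alternatives: other pseudocounts (1 and 0.01), no filter on low values or a mean of at least 5 RPKM, quantile and TMM scaling, scaling to reads outside mitochondrial genes, no mean-variance trend, the replicate block, limma-voom on recovered reads, and leaving out each library. Differences of single members kept their direction in 135 of 138 refits in tumor cells, 115 of 138 in TRMs and 134 of 137 in MDMs; members under the 5 RPKM filter were not tested there. The cause of the changes below was not tested.

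In tumor cells the members' median of -0.26 was -0.18 with TMM scaling, -0.18 with limma-voom, -0.15 outside mitochondrial genes, -0.34 with quantile scaling and -0.37 at a mean of 5 RPKM, and -0.34 to -0.19 with a library left out. The count of members called was 2 to 4 under the other settings, which called 36.4% to 48.8% of all genes, and 0 to 7 with a library left out, and the count of other pathway genes 4 to 32. Nqo1 turned to -0.45 with quantile scaling and spanned -0.17 to 0.27 with a library left out. Rescaling moved the share of higher calls among all genes called from 51.3% to 38.5% (quantile) and 60.6% to 61.2% (the others).

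In TRMs the members' median of 0.17 was -0.22 with TMM scaling, -0.21 with limma-voom, -0.19 with quantile scaling and -0.22 outside mitochondrial genes, and 0.0807 to 0.23 with a library left out; these scalings brought the all-gene median from 0.38 to between -0.01 and 0.00, and the share of higher calls from 75.8% to between 25.8% and 53.5%. Under TMM, limma-voom, quantile scaling and scaling outside mitochondrial genes in turn, the difference was -0.24, -0.22, -0.15 and -0.24 for G6pdx, -0.20, -0.19, -0.22 and -0.20 for Gclc, -0.00894, -0.0601, -0.0545 and -0.00782 for Gclm, -0.0797, -0.0670, -0.12 and -0.0788 for Keap1, and -0.26, -0.28, -0.24 and -0.26 for Srxn1. With a library left out, Keap1 ranged from -0.21 to 0.82, Srxn1 from -0.0513 to 0.31 and Gsr from -0.244 to 0.0671. The count of members called was 1 with a pseudocount of 1, a mean of 5 RPKM or limma-voom, which called 4.46%, 9.61% and 7.15% of all genes, and 0 to 1 with a library left out. The count of other pathway genes was 4 with limma-voom, 0 with TMM or quantile scaling, outside mitochondrial genes, without the filter, without the trend or with a pseudocount of 0.01, and 0 to 8 with a library left out (8 without KL replicate 2, where 21.7% of all genes were called).

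In MDMs the members' median of -0.14 was 0.0520 at a mean of 5 RPKM and -0.19 to -0.0549 with a library left out, G6pdx was -0.00639 outside mitochondrial genes and -0.0721 to 0.18 with a library left out, and the counts were 0 to 1 for members and 0 to 17 for other pathway genes, the highest without KL replicate 1.

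Replicate numbers only name libraries: deviations of same-numbered libraries correlated at 0.02 in tumor cells, -0.06 in TRMs and 0.05 in MDMs. With the replicate block, the members called were 3 in tumor cells, 0 in TRMs and 0 in MDMs, and the other pathway genes 16, 1 and 0. These fits called 39.1%, 4.28% and 0% of all genes. With 2 libraries per group, Nqo1 rested on the fewest reads of the 10 genes, 10 to 84.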
